A study of Zea mays with 6 samples.

Results

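A set of 41 nuclear genes was lower in tassel meristems of the maize tassel-less1 (tls1) mutant than in wild type (WT). Each was lower in every tls1 library than in any WT library by a set margin. They came from 21324 nuclear genes that reached a minimum WT level, among 45953 features in the count table. Tassels are the male inflorescences of maize, and the meristems were dissected when 1 mm long, before the mutant looks different. WT was the inbred line B73 (3 libraries), and the mutant libraries (3) carry the tls1 mutation with B73 given as their cultivar. Plants of both kinds grew in a greenhouse to the V6-V7 stage and had no treatment other than fertilizer, which supplied nitrogen at 238 ppm and boron at 0.08 ppm. The labels describe the mutant as boron deficient and do not say how many plants a library holds.

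The tls1 gene encodes a membrane channel of the aquaporin family that lets boron into cells. Boron cross-links the pectin rhamnogalacturonan-II in plant cell walls, and dividing tissues such as meristems are among the first to fail when it is short. A tassel meristem holds a small pool of stem cells at its tip and makes branch and spikelet meristems on its flanks. In whole meristems, fewer cells of a type and less RNA per cell cannot be told apart.

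Members were nuclear identifiers (those that begin with Zm00001d) that met a pair of conditions. Their mean WT level was at least 0.3 CPM, the count of a gene per 1000000 counts of its library, and the lowest WT library exceeded the highest tls1 library by at least 0.5 in log2(CPM + 0.1). That distance is called the gap here. Of 43789 nuclear identifiers, 21324 reached the WT level, and the 41 members were 0.192% of these. Since the gap uses WT against tls1, every size of change given for a member is a description and carries no test. The identifiers are not paired with names in the sources used here, so no function can be given for any member. For the same reason the tissue label could not be checked against marker genes: 0 of 91 symbols in 10 lists of meristem, hormone, cell-cycle and cell-type genes could be matched to an identifier.

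Library totals ran from 72498318 to 77619452 counts, and 3 counts in a library corresponded to 0.0387 to 0.0414 CPM. Mitochondrial genes took 0.135% to 0.319% of the counts and plastid genes 0.0011% to 0.0033%. Both shares overlapped between the genotypes. WT and tls1 libraries with the same replicate number deviated from their genotype means in a correlated way (0.409, 0.594 and 0.653 for numbers 1, 2 and 3), so they are also given as pairs 1, 2 and 3. In their counts as such the libraries of number 1 were not alike: the mean chi-square per gene was 120 between them, and 68.3 between tls1 library 1 and WT library 2.

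In the middle member, tls1 kept 41.4% of the WT level. The ratio of mean CPM, tls1 to WT, ran from 4.98% to 65.5% over the 41 members. It was under 50% in 35 members and under 25% in 6. The mean difference over the 3 pairs, in log2(CPM + 0.1), had a median of -1.13 in the members and of 0.02 in all 21324 nuclear genes at the WT level. Summed over the members, the WT libraries held 898, 773 and 887 CPM and the tls1 libraries 266, 322 and 377 CPM. Without the 3 members of highest WT level the sums were 449, 419 and 432 CPM in WT and 168, 211 and 199 CPM in tls1. The fall was therefore present in the remaining 38 genes as well, as the rule requires of each.

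**Figure D1:**
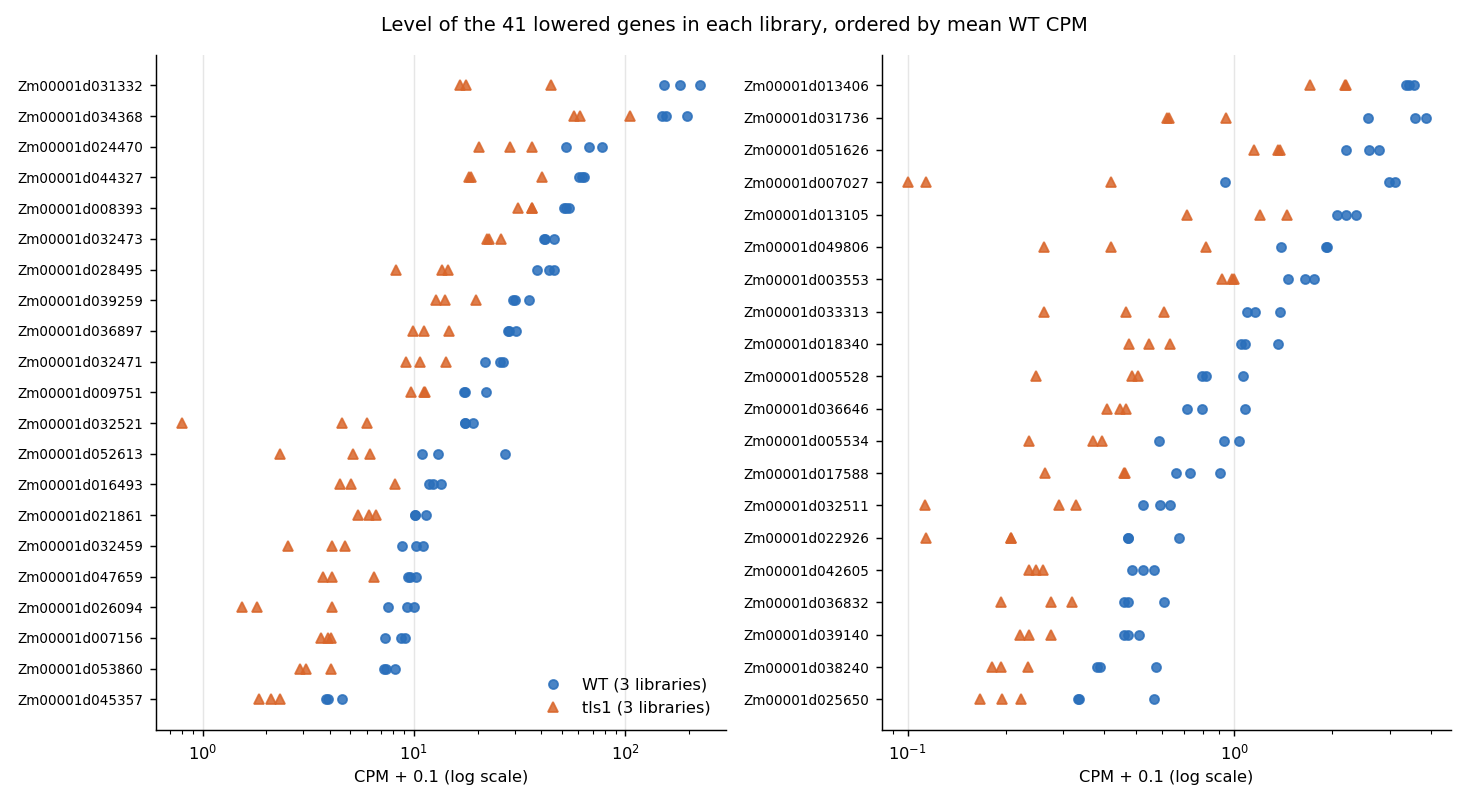
Level of each of the 41 members in each of the 6 libraries, as CPM + 0.1 on a log axis, in 2 columns ordered by mean WT CPM (blue circles WT, orange triangles tls1). No triangle of a gene reaches its circles, and the distance between them is widest for Zm00001d031332, where the gap is 1.77.

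CPM is not divided by gene length, so levels are compared between libraries for 1 gene and not between genes as transcript amounts. They do show how many reads stand behind each value. Mean WT levels ran from 0.311 to 186 CPM with a median of 4.01 CPM. Of the members, 11 had a mean WT level under 1 CPM, 15 had 1 to 10 CPM, 13 had 10 to 100 CPM and 2 had more. In percent these were 26.8%, 36.6%, 31.7% and 4.88% of the members, against 9.83%, 25.3%, 53.0% and 11.8% of all 21324 genes. The set thus held more genes with few reads than the table as a whole, and their median WT level of 4.01 CPM stood against 20.8 CPM.

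Among the members with many reads, Zm00001d031332 had the largest gap of the whole set. It was at 225, 153 and 182 CPM in WT libraries 1, 2 and 3, and at 16.3, 17.5 and 44.6 CPM in tls1 libraries 1, 2 and 3. The third tls1 library was the highest of its group and still lay 1.77 below the lowest WT library on the log2 scale. The WT mean was 186 ± 36.4 CPM and the tls1 mean 26.2 ± 16.0 CPM (SD over 3 libraries), so that tls1 kept 14.0% of the WT level.

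The second gene with a mean over 100 CPM in WT, Zm00001d034368, stood only just inside the rule. Its levels were 156, 149 and 196 CPM in WT and 61.2, 57.0 and 105 CPM in tls1. Tls1 library 3 was the high one again, and it decided the narrow gap of 0.51. The mutant kept 44.5% of the WT level.

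Zm00001d028495 had 46.1, 38.2 and 43.3 CPM in WT and 8.12, 14.4 and 13.4 CPM in tls1. Here the first tls1 library was the low one, and the other two were alike. The mean fell from 42.5 ± 3.99 to 12.0 ± 3.36 CPM (SD over 3 libraries), or to 28.1% of WT, with a gap of 1.41.

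In Zm00001d024470 and Zm00001d044327, tls1 library 2 was the high one. Zm00001d024470 had 67.5, 52.4 and 77.1 CPM in WT against 20.1, 35.9 and 28.3 CPM in tls1. Zm00001d044327 had 62.0, 63.5 and 60.4 CPM in WT against 18.6, 40.3 and 18.2 CPM in tls1. Its WT libraries lay close together, while the second tls1 library held more than double the counts of either other one. The gaps were 0.54 and 0.58.

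Changes were smaller and more even in Zm00001d008393 and Zm00001d039259. Zm00001d008393 had 54.0, 52.3 and 51.2 CPM in WT and 35.9, 36.1 and 31.0 CPM in tls1, which kept 65.5% of the WT level, the highest share in the set. Zm00001d039259 had 29.5, 29.9 and 34.9 CPM in WT and 13.9, 12.6 and 19.5 CPM in tls1, with 48.7% kept. Zm00001d036897, with a wider gap of 0.93, had 27.8, 28.1 and 30.3 CPM in WT and 9.79, 14.5 and 11.0 CPM in tls1. In Zm00001d008393 and Zm00001d036897 the libraries of a genotype lay nearer to each other than to the other genotype, while in Zm00001d039259 tls1 library 3 lay about as near to WT as to tls1 library 2.

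Gaps of at least 1 on the log2 scale, a factor of 2 between the nearest libraries, were seen in 6 members. Besides Zm00001d031332 and Zm00001d028495 these were Zm00001d032521, Zm00001d031736, Zm00001d022926 and Zm00001d007027. Zm00001d031736 had 2.47, 3.48 and 3.76 CPM in WT and 0.524, 0.531 and 0.843 CPM in tls1. It kept 19.5% of the WT level, and the differences in pairs 1, 2 and 3 were -2.05, -2.50 and -2.03.

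Zm00001d007027 had the lowest share left of the 41 members, 4.98%. Its mean difference of -3.61 on the log2 scale was the largest fall of all 21324 nuclear genes at the WT level. Its counts were 65, 209 and 225 in WT and 0, 1 and 24 in tls1. The third tls1 library thus held nearly all of the tls1 reads, and the first WT library was low for its group. In CPM, WT had 0.837, 2.88 and 3.01, and tls1 had 0, 0.0136 and 0.321. It was the only member with a count of 0 in any library.

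Zm00001d026094, Zm00001d049806 and Zm00001d052613 were among the 8 largest mean falls without a gap of 1. Zm00001d026094 had 7.47, 9.13 and 9.88 CPM in WT and 1.71, 1.44 and 4.01 CPM in tls1, where library 3 was the high one. Zm00001d049806 had 1.29, 1.82 and 1.80 CPM in WT and 0.161, 0.721 and 0.321 CPM in tls1, where library 2 was. Zm00001d052613 differed from both because WT varied as much: it had 26.9, 12.8 and 10.8 CPM in WT and 5.03, 2.22 and 6.06 CPM in tls1. WT library 1 held more than double the level of the other WT libraries.

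For the members with few reads, counting error matters more. In 14 members the 3 tls1 libraries together held under 100 counts. Exact (Clopper-Pearson) 95% intervals of the tls1 to WT ratio of summed counts, scaled by depth, stayed below 100% in all 41 members, and the highest upper bound was 67.8%. These intervals and the floors above cover counting error only, and the rule itself chose genes with low ratios. The fewest WT counts were in Zm00001d025650, an identifier outside the naming rule that was picked after its values were seen. It had 18, 17 and 35 counts in WT and 7, 9 and 5 in tls1, a ratio of 30.3% with an interval from 17.7% to 49.9%. Zm00001d042605 had 30, 31 and 35 counts in WT and 11, 10 and 12 in tls1, the most even of the members with few reads. Its ratio was 34.7%, with an interval from 22.6% to 52.1%. Zm00001d038240 had 37, 21 and 21 counts against 10, 6 and 7.

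**Figure D2:**
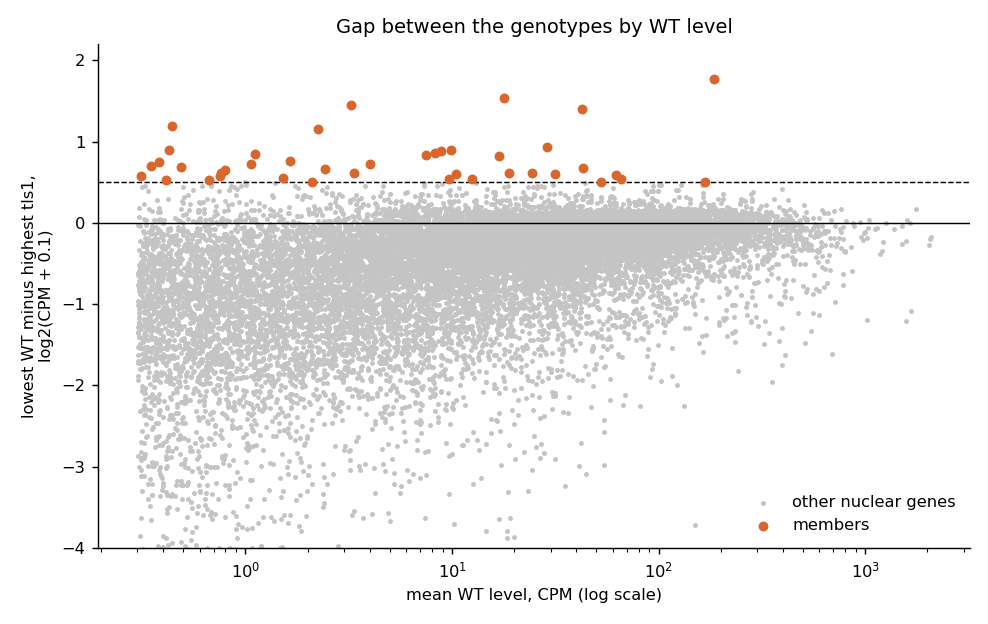
Gap between the genotypes (lowest WT minus highest tls1, in log2(CPM + 0.1)) against mean WT CPM on a log axis, for the nuclear genes at or above 0.3 CPM in WT; 266 genes with a gap under -4 lie outside the axis. The 41 members (orange) lie above the dashed line at 0.5, and 2526 of the 21324 genes lie above 0.

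The threshold cut through a continuous range. Just inside it were Zm00001d008393 (gap 0.50), Zm00001d034368 (0.51) and Zm00001d013105 (0.51). Just outside were Zm00001d022653 at 0.498, Zm00001d028919 at 0.492 and Zm00001d053269 at 0.490. Zm00001d028919 had 45.2, 44.8 and 41.4 CPM in WT and 29.4, 20.2 and 23.0 CPM in tls1, and Zm00001d013105 had 2.25, 2.10 and 1.96 CPM against 0.618, 1.10 and 1.35 CPM. The members' median gap was 0.67, so most of them stood close to the limit.

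The same rule turned round, with tls1 above WT, was met by 298 genes. They were 1.37% of the 21780 nuclear genes with a mean tls1 level of at least 0.3 CPM. Their median gap was 0.83, and 116 of them (38.9%) had a gap of at least 1, against 6 of the 41 lowered genes (14.6%). The median mean difference over the pairs was 1.73 in the raised genes and -1.13 in the lowered genes, on the same log2 scale. The lowered genes were thus fewer than the raised ones, and their median change was smaller. Without a minimum gap the directions were closer among genes at the WT level. All tls1 libraries were below all WT libraries in 2526 of these 21324 genes (11.8%) and above them in 2292 (10.7%). Raised genes under that WT level are not in this count, though some are among the 298, whose lower quartile of mean WT level was 0.158 CPM.

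All 41 members passed the filter on low counts for the test across all genes, edgeR's quasi-likelihood test with Benjamini-Hochberg adjustment. That test called 0 of 23349 genes lower in tls1 (0%), and so 0 members. At an unadjusted p under 0.05 it had 2153 genes lower (9.22%), 40 of them members. DESeq2 called 569 genes lower (2.44%), 27 of them members, and limma-voom called 0. With the replicate number as a block, edgeR called 47 genes lower (0.201%), of which 9 were members. The members were chosen on this contrast, so nothing is read from these counts. By that fit's order of p they were Zm00001d034368, Zm00001d039259, Zm00001d032473, Zm00001d036897, Zm00001d008393, Zm00001d031736, Zm00001d031332, Zm00001d028495 and Zm00001d032471. The count of members called with the block went to 13 without the libraries of number 1, to 8 without those of number 2 and to 3 without those of number 3. Over all genes, the same fits called 132 of 23563 (0.56%), 35 of 23624 (0.148%) and 9 of 23629 (0.0381%) lower.

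Agreement of the same-numbered pairs was next described. The median difference, tls1 minus WT in log2(CPM + 0.1), was -1.33 in pair 1, -1.03 in pair 2 and -1.11 in pair 3. In all 21324 genes the pair medians were 0.02, 0.01 and -0.01. The fall was largest in pair 1 for 24 members, in pair 2 for 13 and in pair 3 for 4. It was smallest in pair 3 for 20 members, in pair 2 for 15 and in pair 1 for 6. Pair 1 thus held the largest fall in 58.5% of the members, against 37.4% of all 21324 genes and 66.7% of the 2526 with all tls1 libraries below all WT libraries. Pair 3 held the smallest in 48.8% of the members, against 28.1% and 34.8%, while pair 2 did in 36.6% of the members, against 34.1% and 53.8%. In 10 members every pair fell by more than 1.

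Within a genotype the members varied more in tls1 than in WT. The SD of log2(CPM + 0.1) over the 3 libraries had a median of 0.17 in WT and 0.37 in tls1, against 0.13 and 0.14 in all 21324 genes. Levels in tls1 were lower, and low counts vary more, and their part in this was not tested. Tls1 library 1 was the lowest of its group in 25 members, library 2 in 12 and library 3 in 4. Library 1 was thus the lowest in 61.0% of the members, in 33.3% of all 21324 genes and in 54.6% of the 2526 genes with all tls1 libraries below all WT libraries. Tls1 library 3 was the highest in 22 members (53.7%), against 35.3% of all genes and 48.1% of those 2526.

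The 3 pair differences of a member spanned a median of 0.79 on the log2 scale. They lay within 0.5 of each other in 13 members and spanned over 1 in 16. Most alike were the pairs of Zm00001d008393, at -0.59, -0.53 and -0.72 in pairs 1, 2 and 3, followed by Zm00001d042605 at -0.97, -1.16 and -1.12. Zm00001d038240 came next at -1.30, -1.10 and -0.98.

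The pairs were farthest apart in Zm00001d032521. It had 17.3, 18.8 and 17.4 CPM in WT and 0.698, 4.45 and 5.93 CPM in tls1. Differences were -4.45, -2.06 and -1.54, so the spread came from the tls1 libraries and not from WT. In Zm00001d007027 the differences were -3.23, -4.71 and -2.88. In Zm00001d052613 they were -2.39, -2.48 and -0.83, where both genotypes varied.

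Across the 41 members, the differences of pairs 1 and 2 had a Pearson's r of 0.579 and a Spearman's rho of 0.403. For pairs 1 and 3 these were 0.543 and 0.446, and for pairs 2 and 3 they were 0.537 and 0.243. These are correlations across genes, which are not independent replicates. The rule also required a fall in every pair. In each combination rho was lower than r.

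**Figure D3:**
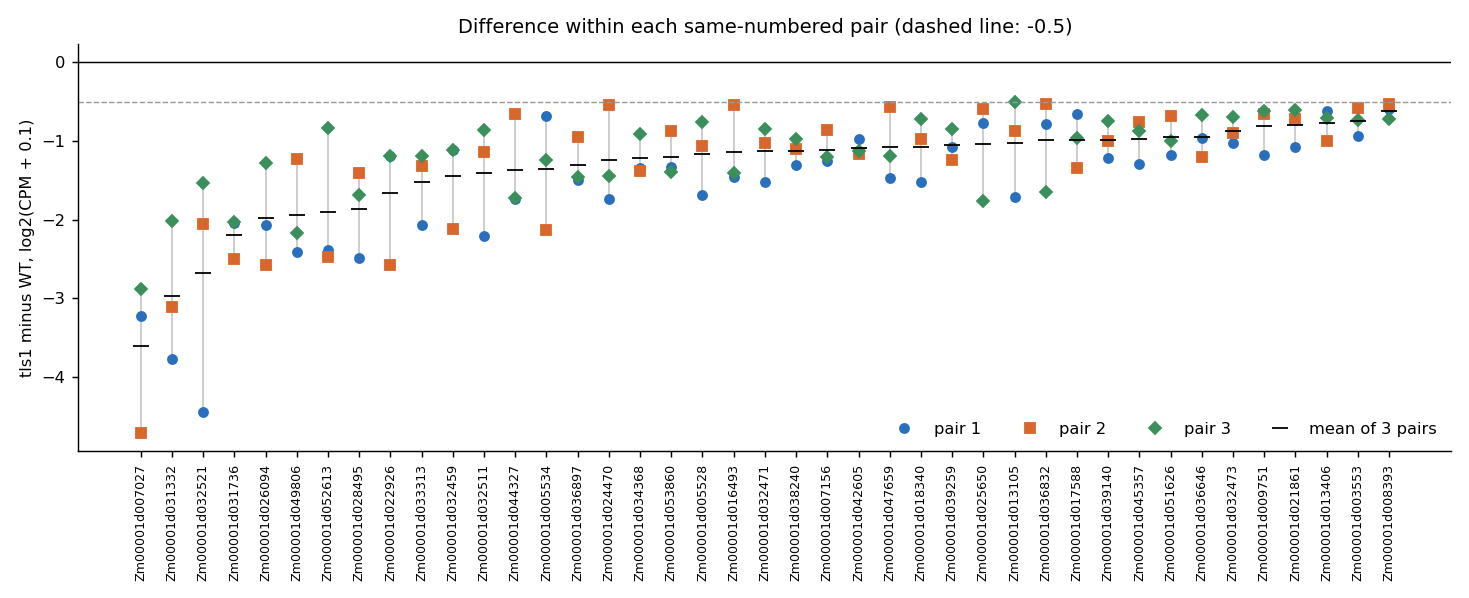
Difference within each same-numbered pair (tls1 minus WT, log2(CPM + 0.1)) for the 41 members, ordered by the mean of the 3 pairs (black bars); grey lines span the 3 values. All values lie below the dashed line at -0.5, and the span is widest for Zm00001d032521, from -4.45 in pair 1 to -1.54 in pair 3.

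Row order in the table followed chromosome order for nearly all microRNA genes that could be placed. Of 154 microRNA identifiers, 153 had a position in the RefSeq gene table (assembly Zm-B73-REFERENCE-NAM-5.0). All 142 consecutive ones that share a chromosome stood in ascending order, and 1 microRNA gene stood outside the block of rows of its chromosome. Rows are therefore used for neighbourhood only, and coordinates are left out because the sources do not name the build behind the counts. Between the first and the last microRNA gene of a chromosome, all 10 blocks of rows held at least 1 member. The first block held 11 of the 41 members (26.8%) and 14.6% of the 21324 genes. It also held 5 of the 6 members with a gap of at least 1. Of its 11 members, 6 formed the single run described next, among them Zm00001d022926 and Zm00001d032521, which had such a gap. The share of the block and the run are therefore not separate observations.

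Most members stood alone: the median distance to the nearest other member was 699 rows, and 33 had no other member within 50 rows. The other 8 formed a run of 6 and a run of 2. The run of 6 spanned 55 rows between zma-MIR482 and zma-MIR166i, which RefSeq places on 1 chromosome, in the first block. In row order it held Zm00001d022926, Zm00001d032459, Zm00001d032471, Zm00001d032473, Zm00001d032511 and Zm00001d032521. Zm00001d032459 is outside the naming rule and is given because it completes the run. The first identifier is out of numerical order, so number alone would not have placed it there. None of the sources gives the identifier of the mutated gene, so its own level was not checked, and whether the run lies near it was not tested.

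Zm00001d022926 and Zm00001d032459, on adjacent rows, had similar pair differences but not the same fall. By mean CPM, tls1 kept 17.2% of the WT level in the first and 37.1% in the second. The first had 0.107, 0.0136 and 0.107 CPM in tls1, where the 0.1 added to CPM makes a fall look smaller. Zm00001d022926 had 29, 42 and 28 counts in WT and 8, 1 and 8 in tls1. Zm00001d032459 had 8.71, 10.9 and 10.2 CPM in WT and 3.97, 2.44 and 4.64 CPM in tls1. Differences in pairs 1, 2 and 3 were -1.19, -2.58 and -1.20 for the first and -1.11, -2.12 and -1.11 for the second, with pair 2 the largest in both. None of the sources states whether strand was used in counting, so reads shared by overlapping neighbours cannot be told apart.

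Zm00001d032471 and Zm00001d032473, separated by 1 gene, ordered the pairs alike, but not as Zm00001d022926 and Zm00001d032459 did. Zm00001d032471 had 26.1, 21.6 and 25.4 CPM in WT and 9.04, 10.6 and 14.1 CPM in tls1. Zm00001d032473 had 46.0, 41.1 and 41.6 CPM in WT and 22.5, 22.0 and 25.8 CPM in tls1. Both fell most in pair 1 and least in pair 3. The gene between them, Zm00001d032472, was no member and had a mean difference of -0.08.

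Farther along the run, Zm00001d032511 had 33, 39 and 37 counts in WT and 1, 14 and 17 in tls1. It and Zm00001d032521, described above, had their largest fall in pair 1 and their smallest in pair 3, as the previous 2 genes did. This was common in the whole set: pair 1 held the largest fall in 58.5% of the 41 members and pair 3 the smallest in 48.8%.

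The run also held 29 genes at the WT level that were no members. Of these, 8 had all tls1 libraries below all WT libraries and 3 had them above, against 11.8% and 10.7% of all 21324 genes. Their median difference was -0.08. The following 3 genes were picked after their values were seen. Zm00001d032461 had 17, 79 and 49 counts in WT and 0, 0 and 12 in tls1, a mean difference of -2.26, but its gap was 0.29. Zm00001d032465 had 102, 102 and 99.4 CPM in WT and 62.1, 67.8 and 72.1 CPM in tls1, with a gap of 0.46. Zm00001d032470 had 119, 116 and 136 CPM in WT and 67.2, 77.8 and 87.6 CPM in tls1, with a gap of 0.40.

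The 50 rows before and the 50 rows after the run differed in this, on few genes. In the 50 rows before it, 2 of 21 genes at the WT level had all tls1 libraries below all WT libraries, and the median difference was 0.14. In the 50 rows after it, 8 of 27 did, with a median of -0.03, a share like that inside the run. Within 100 rows these were 5 of 49 genes before the run and 11 of 51 after it, against 11.8% of all 21324 genes. Neither side held a member within 100 rows.

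**Figure D4:**
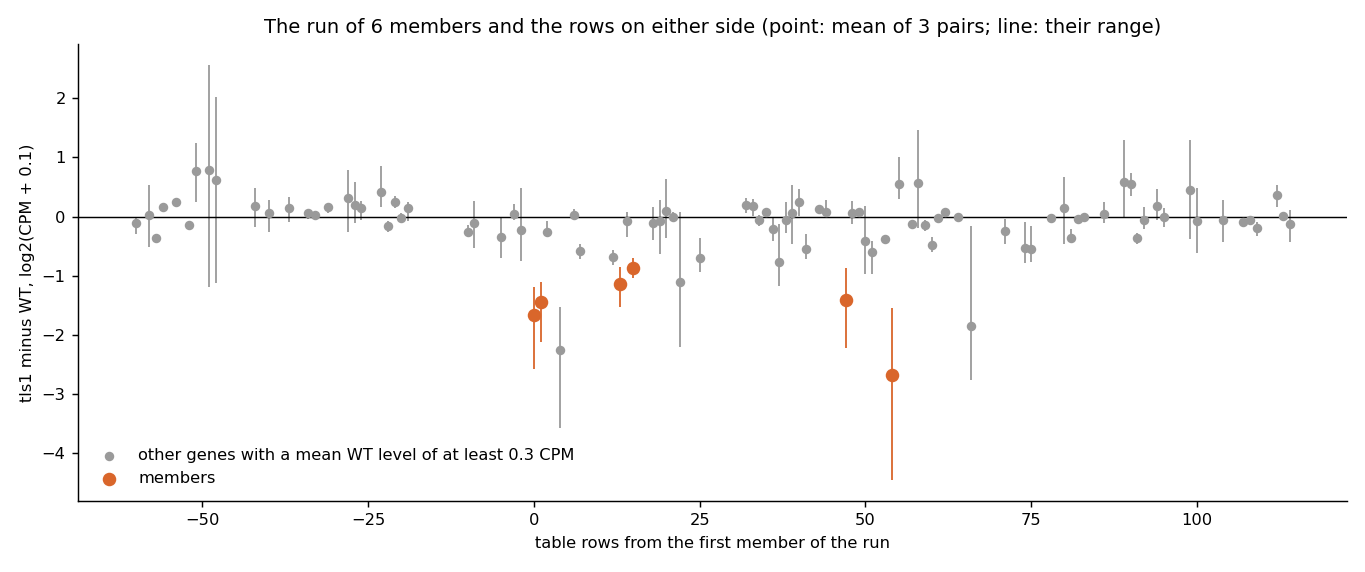
Difference between the genotypes (tls1 minus WT, log2(CPM + 0.1)) by table row, for the run of 6 members (orange) and the other genes with a mean WT level of at least 0.3 CPM (grey), with 60 rows on either side; points are means of the 3 pairs and lines their range. The 6 members lie between -2.68 and -0.87, among genes that mostly lie near 0.

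The run of 2 spanned 6 rows. Zm00001d005528 had 54, 70 and 54 counts in WT and 11, 30 and 29 in tls1. Zm00001d005534 had 38, 68 and 62 counts in WT and 20, 10 and 22 in tls1. They differed in their pairs: the first fell most in pair 1 (-1.68) and the second most in pair 2 (-2.14). The single other gene at the WT level between them had a mean difference of 0.03.

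Neighbours of the other members had a median difference near 0. Within 10 rows of the members outside the run of 6 lay 353 other genes at the WT level, with a median difference of 0.01. All tls1 libraries were below all WT libraries in 54 of them (15.3%, against 11.8% of all genes) and above in 39. On the next nuclear row to any member, the run of 6 included, 44 genes reached the WT level without being members. Their median difference was -0.03, and 9 of the 44 had all tls1 libraries below all WT libraries, against 11.8% of all genes.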

How the data were processed

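Per the labels' protocols, poly-A RNA of 1 mm tassel meristems was sequenced as paired reads. Per the submitters' processing notes, cutadapt was used for adapters and STAR for alignment. The counting program, strand setting, build and versions were not given in the sources used here. The authors deposited raw counts, not normalized, for 45953 features in 6 libraries.

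CPM was the count over the library total times 1000000. Members and lists were chosen with earlier results of these data known. The test across all genes was that of edgeR 4.0.16 under R 4.3.3 (quasi-likelihood test, TMM factors, filterByExpr, genotype as the only factor, Benjamini-Hochberg adjustment over 23349 genes, calls at an adjusted p under 0.05). DESeq2 1.42.0 and limma 3.58.1 (voom) were alternatives. Fits were also run on simulated counts drawn without a replicate effect, so the block was not checked under such an effect. Differences within pairs and neighbours used Python 3.11.15 with pandas 2.3.3, and intervals scipy 1.17.1.

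Deviations from the genotype means correlated at 0.409, 0.594 and 0.653 between libraries of the same number, so the numbers were taken to pair the libraries, on the data alone. Since separate plants are not mentioned in the labels, p-values reflect the spread between these 6 libraries alone, and that spread may be technical. Every combination of libraries differed by more than sampling noise (mean chi-square per gene of 41.8 or more).

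Named members were those with 1 of the 8 highest WT levels, 8 largest gaps or 8 largest falls, an identifier number within 10 of another member, 1 of the 3 smallest or largest spreads over pairs, or a call with or without the block (up to 8), and the 3 genes on either side of the gap limit. Sequences are not shown, since no table used here links these identifiers to any.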

Additional observations from a re-analysis of the deposited data

How the results depend on the processing

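The number of members depended on the rule. It was 41, and 27 or 19 with 0.5 or 1 added to CPM in place of 0.1. A gap of 0.3, 0.75 or 1 gave 175, 16 or 6. TMM or RLE scaling gave 47 or 44, which held 41 and 40 of the members, and a WT minimum of 0.1 or 1 CPM gave 44 or 30. Taking the gap as the smallest difference within the pairs (replicate block) gave 132. Leaving out 1 library gave from 72 to 163 genes, which held 40 or 41 of the members, and leaving out both libraries of a number, chosen after seeing the data, gave from 130 to 221. Fewer libraries widen a gap by construction.

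Genes called lower in tls1 numbered 0 with edgeR, 47 with the replicate block, 569 with DESeq2 and 733 with DESeq2 and the replicate block, the last chosen after seeing the data. Leaving out 1 library gave from 0 to 1, and the block without the libraries of a number, also added later, from 9 to 132 (35 without number 2). Genes called higher numbered 1 with edgeR, 13 with no filter, 2 with limma-voom, 115 with the replicate block, 681 with DESeq2 and 900 with DESeq2 and the replicate block. Leaving out 1 library gave from 0 to 10, and the block without the libraries of a number from 43 to 301. Members called lower numbered 0 with edgeR, 9 with the replicate block, 27 with DESeq2 and 26 with DESeq2 and the replicate block. Leaving out 1 library gave from 0 to 1 (1 without tls1 replicate 2), and the block without the libraries of a number from 3 to 13 (8 without number 2). Of all genes tested, edgeR called 0% lower, the replicate block 0.201%, DESeq2 2.44% and DESeq2 with the block 3.14%. Fits without 1 library called at most 0.00418%, and the block without the libraries of a number 0.0381% to 0.56%. The members were chosen on this contrast, so nothing is read from how many were called. RLE and upper quartile factors and a stricter filter left all 3 counts as they were. The stricter filter kept 27 members. The cause of these differences was not tested. Fold changes of the 27 named genes kept their direction in the 17 alternative fits in which they were tested, as groups that do not overlap nearly force.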

Other observations

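A further 5 nuclear genes had a gap of at least 0.5 but a mean WT level under 0.3 CPM, so they are no members. Zm00001d050090 had 5, 4 and 5 counts in WT libraries 1, 2 and 3 and 0 in each tls1 library, near the floor of 3 counts. Zm00001d009458 had 8, 11 and 5 counts in WT and 0, 1 and 1 in tls1. Zm00001d024918 had 17, 21 and 11 against 5, 5 and 5, Zm00001d038219 had 19, 13 and 17 against 4, 3 and 4, and Zm00001d022809 had 5, 8 and 7 against 1, 1 and 0. At these counts the sizes of change are not well set.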
